A study of Homo sapiens with 4 samples.

Results

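The distal long arm of chromosome 14 was examined in 2 clones of HCT116, a human colorectal carcinoma cell line, that stably express shRNA against N-BLR, a long non-coding RNA. The segment runs from base 70000000 of build hg17 to the last probe at base 106354036, from band 14q24 through 14q32. Its members were selected on measured values: windows of the clone over control ratio were shifted here, so the levels of the clones against the control, and the counts of genes past a threshold in those contrasts, are given as a description and are no test of the segment. The array held 611 probes in the segment, of 41000 probes in all, and 383 of them could be matched to 233 genes, of 17473 matched genes with a position on a chromosome. In the segment 382 probes and 186 genes were well above background in both channels on all 4 arrays, and these 186 are called measured genes below. Copy number was not measured, since the arrays were hybridised with RNA.

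Clone #3-1 and clone #4-7, each carrying the N-BLR shRNA vector of that number, were hybridised on 2 arrays each against HCT116 cells with the empty vector. By the labels the shRNA clone carried Cy5 and the control carried Cy3 throughout, without a dye swap. The labels speak of lentiviral transduction, the methods of a transfected vector with drug selection, and each shRNA group is 1 clone, so clone and shRNA effects cannot be told apart. By the labelled dyes CDH1 was lower in the clones (log2 ratio -2.60 ± 0.01 in clone #3-1 and -1.35 ± 0.03 in clone #4-7, SD, n = 2 arrays) and VIM was higher (4.44 ± 0.01 and 2.38 ± 0.02). These signs are opposite to the direction the study describes for the 2 genes, from its arrays, qRT-PCR and immunofluorescence in these clones. With the dyes turned every sign below would turn with them. Between 71.5% and 72.6% of Cy5 spots and between 68.5% and 71.8% of Cy3 spots were well above background, and arrays of the same clone correlated at r = 0.953 and 0.957 across probes. Of 7 markers of colon epithelium, 5 were well above background on all arrays (EPCAM, KRT8, KRT18, KRT19 and CDH1), whereas VIL1 and CDX1 were not. Among markers of other cells, CD3E, VWF and COL1A1 were well above background and PTPRC, PECAM1 and COL3A1 were not, in a culture of a single line.

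The distal arm of chromosome 14 is rich in genes and varied in function. It carries FOS and JDP2, which encode partners in the AP-1 family of transcription factors, and a cluster of serpin protease inhibitors headed by SERPINA1. Further out lie BDKRB1 and BDKRB2, the bradykinin receptors, and the imprinted domain from DLK1 to DIO3, where parental origin decides which genes are active. The immunoglobulin heavy chain locus ends the arm.

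The probes that carry the largest values are shown first, as the 30 bases that begin each 60 base probe, 5′ to 3′ as the files list them. For BDKRB1 the 30 bases are the start of the 35 bases that its probes share. The INF2 probes are shown because they gave opposite signs.
FOS, chr14:74817967-74818026: agagggttcctgtagacctagggaggacct
BDKRB2, chr14:95780094-95780153: gccctatgcatggtgtagatgccctgataa
BDKRB1, chr14:95800764-95800823: ttcatcccataggaaagaaatcttccaact
DLK1, chr14:100270801-100270860: ggtatcgtcttcctcaacaagtgcgagacc
INF2 (brightest probe), chr14:104242092-104242151: actgccctagaaggcaaatcgcctacgtta
INF2 (probe nearest the chromosome end), chr14:104256557-104256634: aaatgcaatgctttgcaagtctttactgct

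Over the 233 genes, with the brightest probe taken for each, the median log2 ratio against the empty vector was 0.08 in clone #3-1 and 0.06 in clone #4-7. The median over all 17473 genes was 0.02 in each clone. On single arrays the segment's median was 0.09 and 0.08 in clone #3-1 and 0.07 and 0.08 in clone #4-7, so the arrays of the clones overlapped. Over the 186 measured genes the medians were 0.13 in each clone, beside 0.03 over the 12886 measured genes of the whole array. The middle 50% of measured genes ran from -0.09 to 0.35 in clone #3-1 and from -0.12 to 0.37 in clone #4-7, so single genes spread far more widely than the shift of the median. In clone #3-1 122 of the 186 measured genes lay above 0, and in clone #4-7 113 did. These are 65.6% and 60.8%, beside 54.1% and 54.5% over all measured genes.

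The 246 measured genes of chromosome 14 that precede the segment had medians of 0.08 and 0.06, between those of the segment and of all genes. The other 22 chromosomes, Y left out, had medians from 0.00 to 0.08 in clone #3-1 and from -0.01 to 0.10 in clone #4-7, over 130 to 1334 measured genes each. Chromosome 14 as a whole, with 432 measured genes, stood at 0.11 in clone #3-1 and 0.09 in clone #4-7.

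**Figure D1:**
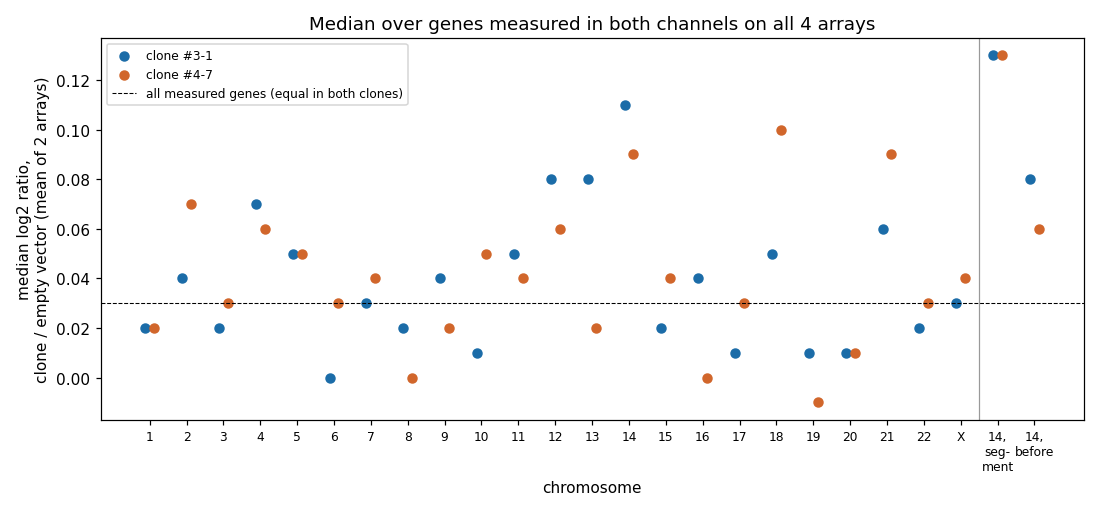
Each point is the median log2 ratio of a clone over the empty vector (y axis, mean of 2 arrays) over the measured genes of a chromosome (x axis), with the 186 measured genes of the segment and the 246 before it at the right. The segment stands at 0.13 in each clone, above the 0.03 of all measured genes (dashed line).

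At unadjusted p under 0.001 in limma's test, the threshold for every call below, 75 of the 233 genes were called higher in clone #3-1 and 30 lower. Over all genes 21.5% were called higher and 18.2% lower in that clone. In clone #4-7 74 genes were called higher and 29 lower, where 20.2% and 16.2% of all genes were called. These contrasts served to choose the segment, so the counts describe it and nothing is read from them. Without array 1 or array 2 of clone #3-1 the calls in that clone numbered 58 and 59 in place of 105, and without those of clone #4-7 there were 55 and 54 in place of 103.

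The shift was uneven along the arm. In steps of 15 neighbouring genes, the running median of the scanner's own log ratio, converted to log2, was above 0 at 164 of 226 steps in clone #3-1 and at 154 in clone #4-7. It was highest at 0.41 around ZC3H14 (base 88145865), a poly(A)-binding zinc finger gene, in clone #3-1. In clone #4-7 it was highest at 0.49 around YLPM1 (base 74371740), so the highest steps of the clones lay at different places. The lowest steps were -0.25 around ZFYVE21 in clone #3-1 and -0.18 around ADAM20 in clone #4-7. A step higher than the highest of the segment occurred on 15 of 22 other chromosomes in clone #3-1 and on 5 of 22 in clone #4-7. On chromosome 14 before the segment the steps ran from -0.43 to 0.37 and from -0.31 to 0.30. There 168 of 301 steps lay above 0 in clone #3-1 and 150 in clone #4-7.

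**Figure D2:**
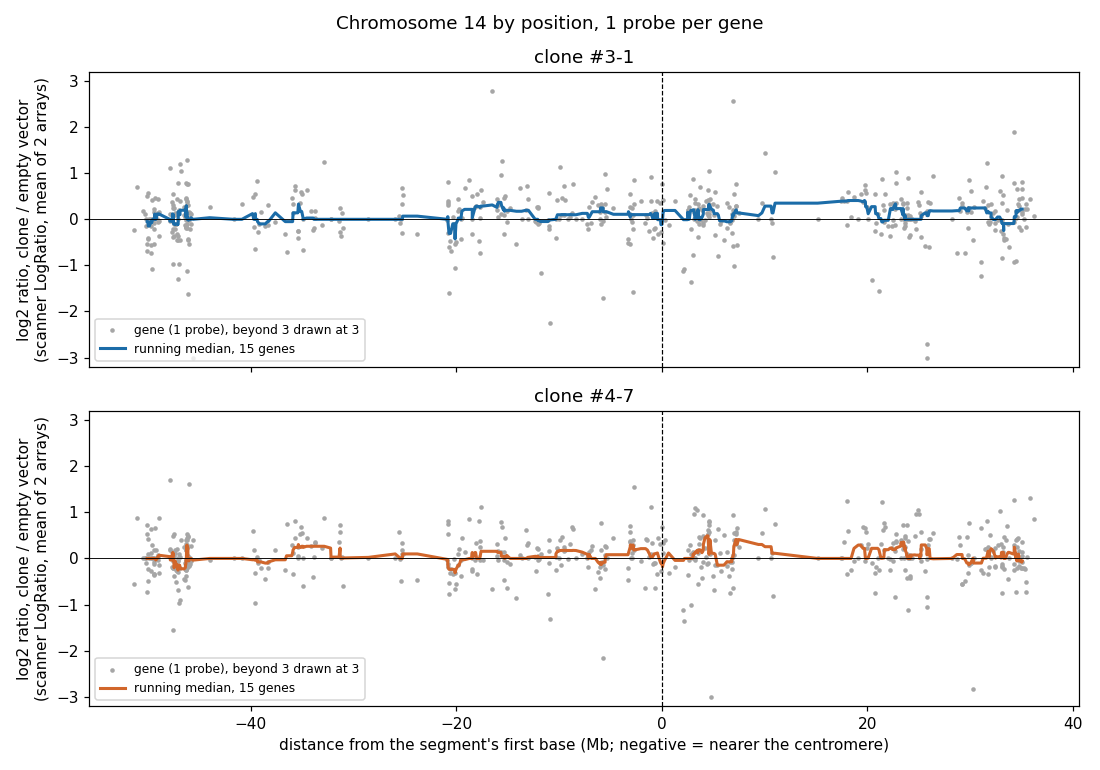
Log2 ratio of clone over empty vector (y axis, mean of 2 arrays) for 1 probe per gene along chromosome 14, by distance from the segment's first base in Mb (x axis), with the running median of 15 genes as a line. The line lies above 0 at most steps right of the dashed boundary and falls below 0 in places, to -0.25 in clone #3-1 and -0.18 in clone #4-7.

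In bins of 5 Mb, the median of the measured genes in clone #3-1 was 0.20 from 70 to 75 Mb (41 genes), 0.35 from 85 to 90 Mb (11 genes) and 0.04 from 100 to 105 Mb (45 genes). In clone #4-7 the same bins gave 0.13, 0.28 and -0.01. The bin from 80 to 85 Mb, with medians of 0.87 and 0.66, rests on 3 measured genes. From 90 to 95 Mb clone #4-7 had the higher median (0.22 against 0.10, 38 genes), and from 105 Mb to the end clone #3-1 had it (0.19 against -0.02, 8 genes). Neighbouring measured genes had opposite signs in 43.2% of 185 pairs in clone #3-1 and in 42.2% in clone #4-7, beside 47.8% and 47.9% of 12424 pairs on the other chromosomes.

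The boundary at 70000000 fell between genes of mixed sign. Just outside it, COX16, a mitochondrial assembly factor, had log2 ratios of 0.39 ± 0.13 in clone #3-1 and 0.32 ± 0.03 in clone #4-7. SYNJ2BP stood at -0.29 ± 0.03 and -0.29 ± 0.04, and ADAM21 at 0.69 ± 0.02 and 0.60 ± 0.10. Just inside it, MED6, a subunit of the Mediator complex, stood at 0.44 ± 0.04 and 0.37 ± 0.07, and MAP3K9, a kinase of the JNK pathway, at 0.07 ± 0.07 and 0.42 ± 0.07. ADAM20, the first gene inside the boundary, was not well above background in the clone channel of clone #3-1 or in either channel of clone #4-7. At the other end, IGHV1-69 was not well above background in any channel and IGHA1 was dim, with log2 ratios of 0.03 and 0.18 on the arrays of clone #3-1 and 0.13 and 0.22 on those of clone #4-7. ADAM6 stood at 0.06 ± 0.05 and 0.04 ± 0.03. Where a probe was dim in 1 channel on both arrays of a clone, only a bound can be given, against the lowest signal well above background on the array or the probe's own where higher: ADAM20 was at least 1.03-fold lower in clone #3-1, and IGHA1 at least 1.1-fold higher in clone #4-7, than the control.

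The difference between the clones was not used to choose the segment and was tested gene by gene, with the control in common. Of 233 genes, 32 were higher in clone #3-1 than in clone #4-7, beside 13.7% of all genes tested, and 41 were lower, beside 14%. That is 13.7% and 17.6% of the segment's genes. Differences of at least 2-fold were found in 7 of the 73 genes. The largest adjusted p among the 73 was 0.0040 (limma, Benjamini-Hochberg adjustment over 41000 probes). The median difference over the 233 genes was 0.02, beside 0.00 over all genes. Without quantile normalization between arrays the split was 36 higher and 28 lower. Leaving out array 1 or 2 of clone #3-1 left 43 or 45 calls, and leaving out array 1 or 2 of clone #4-7 left 37 or 40. The signals as the scanner software processed them gave 40 calls.

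**Figure D3:**
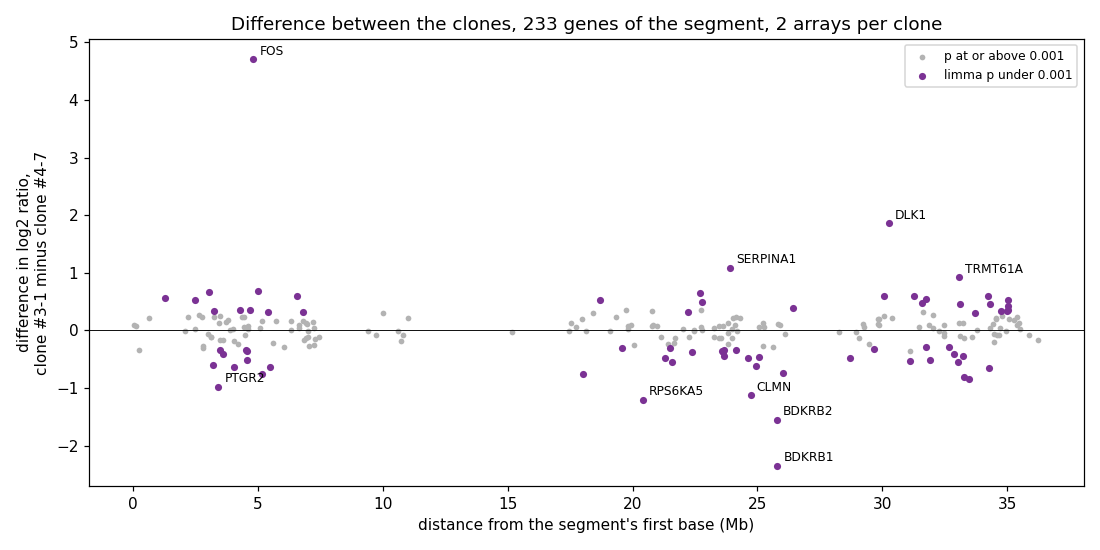
Difference in log2 ratio, clone #3-1 minus clone #4-7 (y axis, 2 arrays per clone), for the 233 genes of the segment by distance from its first base in Mb (x axis), with genes at limma p under 0.001 in purple and those at least 0.9 from 0 named. FOS stands alone at 4.71, and genes of both signs lie side by side along the arm.

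FOS, an immediate early gene whose product pairs with JUN proteins, differed most. Its log2 ratio was 0.21 and 0.31 on the arrays of clone #3-1 and -4.46 and -4.44 on those of clone #4-7. FOS RNA was thus low in clone #4-7 on both arrays and slightly above the control in clone #3-1. The difference was 4.71 ± 0.05 (SE, adjusted p = 1e-05), a 26.2-fold difference. In bulk RNA, fewer cells with FOS and less FOS RNA per cell cannot be told apart. JDP2, which encodes a repressor of AP-1, lies near it and had 0.30 and 0.37 in clone #3-1 against -0.36 and -0.35 in clone #4-7. JDP2 thus lay above the control in clone #3-1 and below it in clone #4-7 (difference 0.69 ± 0.04, adjusted p = 0.00031). BATF, the other AP-1 family gene here, was not well above background in both channels on all arrays. Over all genes 13.7% were higher in clone #3-1 than in clone #4-7 and 14% lower. Of the 9 genes fixed for proximal 14q24 signalling and transcription, 2 were higher in clone #3-1 and 1 was lower, with a median difference of 0.00. The gene that was lower was TGFB3, a TGF-beta ligand, with -0.28 and -0.51 in clone #3-1 against 0.26 and 0.21 in clone #4-7 (difference -0.63 ± 0.08, adjusted p = 0.0031). Its call was kept under 2 of 6 alternatives run.

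The promoter of FOS is shown because FOS moved most. It is given as the 250 bases before the annotated start in RefSeq's GRCh38.p14, on the plus strand, with the motif TGACG, the core of the cAMP response element, in capitals, searched on both strands.
FOS, chr14:75278578-75278827: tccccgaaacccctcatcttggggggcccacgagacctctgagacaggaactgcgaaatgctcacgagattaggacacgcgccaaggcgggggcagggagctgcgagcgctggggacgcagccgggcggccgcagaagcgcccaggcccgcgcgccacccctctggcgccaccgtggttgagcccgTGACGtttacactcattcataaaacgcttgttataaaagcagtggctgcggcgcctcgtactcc
The match begins 64 bases before the start. The motif was found before 21.7% of 27305 promoters in the table and before 56 of 206 genes of the segment with a promoter there (27.2%).

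Both bradykinin receptors were lower in clone #3-1 than in clone #4-7. BDKRB1, the inducible receptor, had log2 ratios of -2.74 and -2.79 in clone #3-1 and -0.35 and -0.50 in clone #4-7 (difference -2.35 ± 0.06, adjusted p = 4.4e-05). The second BDKRB1 probe, which overlaps the first, gave -2.72 and -2.62 against -0.35 and -0.19. BDKRB2, the constitutive receptor and the next measured gene towards the centromere, had -2.33 and -2.29 in clone #3-1 and -0.79 and -0.73 in clone #4-7 (difference -1.55 ± 0.05, adjusted p = 4.8e-05). All 4 arrays thus put both receptors below the control, with clone #3-1 the lower. The list of neural, endocrine and receptor genes held 13 genes, of which 5 were measured. Only these 2 receptors passed the threshold for the difference (median -0.01), beside 14% of all genes lower and 13.7% higher. The other 11 included the thyrotropin receptor TSHR and the neurexin NRXN3, which were not well above background in both channels on all arrays.

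In the imprinted domain, the paternally expressed DLK1, a Notch-related ligand, was higher in clone #3-1 than in clone #4-7. Its log2 ratio was -0.27 and -0.31 in clone #3-1 and -2.20 and -2.10 in clone #4-7 (difference 1.86 ± 0.05, adjusted p = 4.7e-05, a 3.64-fold difference). DIO3, the enzyme that inactivates thyroid hormone, differed the other way, with -0.69 and -0.72 in clone #3-1 and -0.18 and -0.16 in clone #4-7 (difference -0.54 ± 0.04, adjusted p = 0.00048). The ends of the domain thus differed in opposite directions between the clones. Between them MEG3, the maternally expressed long non-coding RNA, had 1 measured probe of 4, at 0.22 ± 0.01 and -0.01 ± 0.06, and its difference of 0.22 ± 0.05 did not pass the threshold (adjusted p = 0.015). Of the 5 genes of the domain on the array, 1 was higher in clone #3-1, 1 lower and 3 were not called. Over all genes 13.7% were called higher and 14% lower.

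SERPINA1, which encodes alpha-1 antitrypsin, was the serpin with the largest difference. It had 0.11 and 0.12 in clone #3-1 and -1.04 and -0.91 in clone #4-7 (difference 1.09 ± 0.06, adjusted p = 0.00019). SERPINA1 RNA was thus near the control in clone #3-1 and below it on both arrays of clone #4-7. SERPINA5, the protein C inhibitor, was lower in clone #3-1 (-0.31 and -0.24 against 0.09 and 0.05, adjusted p = 0.0034), a call kept under none of the 6 alternatives. Only 4 of the 10 serpin genes were measured. Of the 10, 1 was called higher, 1 lower and 8 were not called, beside 13.7% higher and 14% lower over all genes.

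Among 18 kinases, adaptors and survival genes, 2 were higher in clone #3-1 and 6 lower, beside 13.7% and 14% of all genes. The median difference was -0.06. RPS6KA5, which encodes the kinase MSK1 that phosphorylates CREB and histone H3, had -1.33 and -1.29 in clone #3-1 and -0.11 and -0.11 in clone #4-7 (difference -1.20 ± 0.04, adjusted p = 6.8e-05). Its other 2 probes gave -0.92 and -1.08 against 0.01 and -0.02, and -0.47 and -0.71 against 0.15 and 0.13, in the same direction. PTPN21, a tyrosine phosphatase, was higher in clone #4-7 (1.05 and 1.12) than in clone #3-1 (0.29 and 0.35). PPP1R13B, the p53 partner ASPP1, lay below the control in clone #3-1 (-0.42 and -0.46) and above it in clone #4-7 (0.35 and 0.39). The microtubule affinity kinase MARK3 did the same at a smaller size (-0.22 and -0.26 against 0.29 and 0.34). These 3 differences were -0.76, -0.81 and -0.56. SIVA1, an apoptosis factor, and VRK1, a nuclear kinase, were the members higher in clone #3-1, by 0.45 ± 0.04 and 0.39 ± 0.06. AKT1, the survival kinase, stood at -0.03 ± 0.02 and -0.07 ± 0.03 (difference 0.05 ± 0.04, adjusted p = 0.44).

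Genes of translation and protein quality control held several of the highest ratios in the segment. The 10 genes in the list, all measured, had median log2 ratios against the control of 0.71 in clone #3-1 and 0.68 in clone #4-7, beside 0.03 over all measured genes. Those contrasts chose the segment, and the medians are a description. HSP90AA1, the inducible cytosolic HSP90, had 1.21 and 1.19 in clone #3-1 and 0.93 and 0.83 in clone #4-7. All 4 of its probes lay above 0 in both clones, from 0.58 to 1.20 in clone #3-1 and from 0.26 to 0.88 in clone #4-7. AHSA1, which activates the HSP90 ATPase, stood at 0.56 ± 0.01 and 0.57 ± 0.02. PSMC1, an ATPase subunit of the proteasome, stood at 0.78 ± 0.01 and 0.70 ± 0.04, and WARS1, the tryptophanyl-tRNA synthetase, at 0.85 ± 0.01 and 0.74 ± 0.07. SEL1L, an adaptor of endoplasmic reticulum associated degradation, stood at 0.87 ± 0.15 and 0.66 ± 0.00.

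Between the clones, 1 gene of that list was higher in clone #3-1 and 4 were lower, beside 13.7% and 14% of all genes. The median difference was 0.03. ATXN3, a deubiquitinase, was lower in clone #3-1 on its brightest probe (0.15 and 0.17 against 0.68 and 0.74, adjusted p = 0.00055). Its 3 measured probes gave differences from -0.55 to 0.20, so they did not all put the clones in the same order. OTUB2, another deubiquitinase, differed by -0.36 ± 0.04, a call kept under none of the 6 alternatives. EIF2B2, a subunit of the exchange factor of eIF2, differed by -0.33 ± 0.05. EIF5 and UBR7 were the other members called, and their probes disagreed, as given below.

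Among 17 genes of RNA, DNA and transcription, 2 were higher and 4 lower in clone #3-1, beside 13.7% and 14% of all genes. The median difference was -0.01. DICER1, the ribonuclease that makes mature microRNAs, had -0.02 and 0.03 in clone #3-1 and 0.54 and 0.44 in clone #4-7 (difference -0.49 ± 0.05, adjusted p = 0.0013). MLH3, a mismatch repair gene, had -0.03 and 0.08 against 0.54 and 0.55 (adjusted p = 0.0012). Both were near the control in clone #3-1 and above it in clone #4-7, and each call was kept under 3 of 6 alternatives. BCL11B, a zinc finger repressor, had -0.55 and -0.43 against -0.01 and -0.02. MTA1, a subunit of the NuRD complex, was higher in clone #3-1 (0.23 and 0.29 against -0.05 and -0.12), a call kept under none of the 6 alternatives. YY1 did not pass (0.31 ± 0.01 and 0.11 ± 0.08, adjusted p = 0.033).

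Of 16 trafficking and cytoskeleton genes, 5 were called higher and 5 lower in clone #3-1, beside 13.7% and 14% of all genes. The median difference was 0.04. CLMN, an actin-binding membrane protein, had -0.21 and -0.19 in clone #3-1 and 0.90 and 0.94 in clone #4-7 (difference -1.12 ± 0.04, adjusted p = 8.1e-05). DYNC1H1, the heavy chain of cytoplasmic dynein, was above the control in both clones and higher in clone #3-1 (0.87 and 0.84 against 0.36 and 0.39). CRIP1, a small LIM domain protein, likewise had 0.66 and 0.67 against 0.13 and 0.15. INF2, a formin that severs and builds actin filaments, had the highest mean of both clones in the segment, at 1.85 and 1.81 in clone #3-1 and 1.27 and 1.21 in clone #4-7 on its brightest probe.

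Of 14 genes of metabolic and mitochondrial enzymes, 11 of them measured, none was called higher in clone #3-1 and 2 were called lower (median difference -0.06), beside 13.7% and 14% of all genes. ADSS1, which acts in the purine nucleotide cycle of muscle, had -0.93 and -0.88 in clone #3-1 and -0.25 and -0.26 in clone #4-7 (difference -0.65 ± 0.04, adjusted p = 0.0003). ALDH6A1, of valine breakdown, had -0.10 and -0.17 against 0.25 and 0.28, a call kept under 1 of 6 alternatives. None of the 5 immunoglobulin heavy chain genes passed the threshold for the difference, and 2 of them were measured.

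Outside the lists, ATP5MJ, a small subunit of ATP synthase, had -0.38 and -0.49 in clone #3-1 and 0.39 and 0.41 in clone #4-7 (difference -0.84 ± 0.05, adjusted p = 0.00031). TRMT61A, a tRNA methyltransferase subunit, had 0.81 and 0.89 against 0.01 and -0.16, and RIOX1, a histone demethylase, had 0.73 and 0.84 against 0.10 and 0.14. Both were thus above the control in clone #3-1 and near it in clone #4-7. PTGR2, a prostaglandin reductase, had -0.07 and -0.06 against 0.88 and 0.93 on its brighter probe, and its second probe gave a difference of only -0.18. CEP128, a centriolar protein, was among the highest in the segment, with 1.26 and 1.34 in clone #3-1 and 0.98 and 1.00 in clone #4-7. Its other measured probe gave 0.47 ± 0.08 and 0.43 ± 0.04. PAPLN, an extracellular matrix protein, and AHNAK2, a very large scaffold protein, were among the lowest on their brightest probes. These gave -1.03 ± 0.01 and -0.73 ± 0.11 for PAPLN and -0.92 ± 0.02 and -0.71 ± 0.00 for AHNAK2. The other of the 2 measured PAPLN probes gave only 0.02 in clone #3-1 and -0.12 in clone #4-7.

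Several genes were read by more than 1 probe, and these did not always give the same value. Of 73 genes with several measured probes, 14 had differences between the clones that ranged over at least 0.5 among their probes, and 4 genes, EIF5, PPP2R5C, UBR7 and WDR20, had probes called in opposite directions. For EIF5, a translation initiation factor, the brightest probe gave 0.64 and 0.61 in clone #3-1 and 1.03 and 1.03 in clone #4-7, whereas the probe farthest along the gene gave 0.43 and 0.38 against -1.10 and -1.06. One PPP2R5C probe, for a regulatory subunit of protein phosphatase 2A, gave 0.02 and -0.03 against -1.67 and -1.61, and the brightest of them gave a difference of 0.07 ± 0.04. UBR7, a ubiquitin ligase, gave differences of 0.50 and -0.58 on its probes. INF2 gave 1.83 and 1.24 on its brightest probe, 0.74 and 0.54 on a second, and -0.26 and -0.32 on the third, which lies nearest the chromosome end. A level for these genes therefore depends on the probe, and whether the probes read different transcripts was not tested.

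In 6 stretches the arm held at least 3 consecutive measured genes that were called for the difference in the same direction. They were looked for after the values were seen and are given as a description. Of the segment's genes 13.7% were called higher in clone #3-1 and 17.6% lower, beside 13.7% and 14% of all genes. No count of such stretches on other chromosomes is set beside the 6. Near base 93638655, IFI27L1, IFI27 and IFI27L2, of a family of interferon-inducible mitochondrial proteins, stood at 0.06, -0.01 and -0.07 in clone #3-1 and at 0.43, 0.43 and 0.27 in clone #4-7. From base 94627185 DICER1, CLMN, SYNE3 and the non-coding SNHG10 were lower in clone #3-1 by -0.46 to -1.12 over 442 kb. EIF2B2, MLH3 and ACYP1 (-0.33 to -0.52 over 44.4 kb) and TNFAIP2, EIF5 and MARK3 (-0.28 to -0.56 over 343 kb) were also lower. Higher in clone #3-1 were TMED10, FOS and JDP2 (0.36 to 4.71 over 336 kb) and, towards the end of the arm, MTA1, CRIP2, CRIP1 and TEDC1 (0.35 to 0.53 over 28.4 kb). On its brightest probe every gene of these stretches kept its sign under the other 12 settings run, but in most fewer were called. Under plain background subtraction no IFI27 family gene passed, and 3 of 4 did in the stretch from DICER1 to SNHG10. These settings did not change the probe, and another EIF5 probe gave a difference of 1.49, the opposite way.

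The promoter of IFI27 is shown because its neighbours moved with it. It is the 250 bases before the RefSeq start (GRCh38.p14, plus strand), with matches to an interferon-type motif, GAAA and GAAA with any 2 bases between them, on either strand in capitals.
IFI27, chr14:94110486-94110735: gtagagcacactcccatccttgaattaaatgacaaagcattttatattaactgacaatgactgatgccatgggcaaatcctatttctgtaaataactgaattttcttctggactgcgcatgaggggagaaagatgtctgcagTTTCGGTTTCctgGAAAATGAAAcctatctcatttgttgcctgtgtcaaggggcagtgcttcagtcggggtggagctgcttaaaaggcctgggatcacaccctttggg
Its 2 matches begin 108 and 95 bases before the start. No match was found in the same window of IFI27L1 or IFI27L2. The motif was found before 3.07% of all 27305 promoters and before 4 of 206 of the segment (1.94%).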

How the data were processed

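RNA of 2 shRNA clones was measured against an empty vector control on 4 2-colour Agilent arrays. The authors deposited, per the file headers, the mean intensity of each spot and the median intensity of its background in each channel as read by Agilent Feature Extraction (version 9.5.3.1 in the headers, 8.5.1.1 in the submitters' processing notes), not normalized, with the processed intensity and the log10 of Cy5 over Cy3. A combined log10 ratio table, also deposited, matched the scanner's values. Flag columns of 0 or 1 mark outliers, saturation and spots well above background.

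Intensities were background corrected with normexp (offset 50), loess normalized within and quantile normalized between arrays, put on the log2 scale and averaged per probe, in R 4.3.3 with limma 3.58.1. Outlier spots (87 to 125 per array) and 1639 control spots were left out. A linear model with 1 term per clone was fitted over 4 arrays and 41000 probes, and limma's moderated test was called at unadjusted p under 0.001, the threshold the methods name. A test of the ratio against 0 does not include how the control itself varies. The labels call the arrays biological replicates and the methods call them duplicates, so p-values measure the spread between these arrays, which may be technical, and 2 arrays per clone limit the precision.

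Probes were placed by the files' hg17 coordinates and named by accession or symbol through RefSeq (26746 of 41000 probes). The brightest probe stood for a gene. The members and gene lists were chosen with earlier results of these data known. Named genes were the 6 highest and 6 lowest by the mean of both clones, up to 6 in each direction with the largest called difference, 3 on each side of the boundary, the last 3, and up to 4 called members per list. Those outside this rule, named as list members, probe examples or neighbours, were chosen after their values were seen. The fit was tested on simulated data. Replicate numbers did not pair the arrays.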

Additional observations from a re-analysis of the deposited data

Results flagged for a closer look

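The effect against the empty vector differed between the clones at p under 0.001 (limma's test of the difference) in 31 named genes, each with 2 arrays per clone. Passing this test was itself a ground for naming genes, so the number follows from the choice. The shares over all genes were 13.7% higher in clone #3-1 and 14% lower. Of the 31 genes, 14 passed under all 6 alternatives run for named genes, 17 were lost under at least 1, and none changed sign. These alternatives kept the brightest probe of each gene. Other measured probes gave differences of the opposite sign for EIF5 (1.49), UBR7 (-0.58) and ATXN3 (0.20). Values are differences in log2 ratio, clone #3-1 minus clone #4-7.

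Transcripts higher in clone #3-1 were FOS at 4.71, DLK1 at 1.86, SERPINA1 at 1.09, TRMT61A at 0.93, JDP2 at 0.69 and RIOX1 at 0.67. Smaller differences of the same sign were INF2 at 0.59, CRIP1 at 0.53, UBR7 at 0.50, DYNC1H1 at 0.47 and MTA1 at 0.35.

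Transcripts lower in clone #3-1 were BDKRB1 at -2.35, BDKRB2 at -1.55, RPS6KA5 at -1.20, CLMN at -1.12, PTGR2 at -0.97, ATP5MJ at -0.84, PPP1R13B at -0.81 and PTPN21 at -0.76. Differences of -0.65 for ADSS1, -0.63 for TGFB3, -0.56 for MARK3, -0.55 for ATXN3, -0.54 for DIO3 and -0.52 for MLH3 followed. The smallest were -0.49 for DICER1, -0.47 for BCL11B, -0.40 for ALDH6A1 and EIF5, -0.36 for OTUB2 and -0.34 for SERPINA5.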

How the results depend on the processing

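With the offset at 0, calls were 54 in clone #3-1, 55 in clone #4-7 and 33 for the difference, and with plain subtraction 41, 49 and 21. The scanner software's processed signals gave 66 calls in clone #3-1 and 40 for the difference, and the log10 ratios of the authors' table gave 63 and 40. At adjusted p under 0.05 there were 155 calls in clone #4-7 and 127 for the difference. Letting the prior variance follow intensity gave 120 for the difference. All probes of the segment gave 193, 205 and 130. Leaving out 1 array gave 58 to 85 calls in clone #3-1, 54 to 89 in clone #4-7 and 37 to 45 for the difference (the lone array is assumed to vary like the other clone's). The replicate numbers did not pair the arrays (r = -0.0133 between the clones' array differences), and with the replicate number as a block there were 85, 87 and 52 calls. The cause of these changes was not tested.

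The segment's median was between 0.04 and 0.15 in clone #3-1 and between 0.02 and 0.13 in clone #4-7 under the alternatives. It was 0.13 and 0.09 with the offset at 0, 0.15 and 0.11 with plain subtraction, 0.13 and 0.11 on processed signals, 0.13 and 0.09 in the authors' table, and 0.13 in each clone over measured genes. The median of a gene's probes gave 0.06 and 0.05, all probes gave 0.04 and 0.02, and both no normalization between arrays and Aquantile gave 0.04 in clone #4-7. Leaving out 1 array gave 0.08 to 0.09 and 0.07 to 0.08. The median difference between the clones was 0.04 with the offset at 0 and on processed signals, and 0.05 with plain subtraction, without normalization between arrays, with Aquantile and over measured genes. It was -0.01 with the median of a gene's probes, 0.00 over all probes and 0.02 to 0.04 without 1 array. The highest running median was 0.48 over measured genes in clone #3-1 and 0.30 with 25 genes per step in clone #4-7.

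On the brightest probe of each gene, only genes that were not called changed sign. ADAM20 gave -0.56 on processed signals and IGHV1-69 gave 0.19 with plain subtraction. Without 1 array, ADAM20 ran from -0.02 to 0.21, ADAM6 from -0.01 to 0.05, IGHA1 from -0.15 to 0.00 and IGHV1-69 from -0.33 to 0.01.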

Other observations

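The 228 probes of the segment without a matched gene, 93 of them measured in both channels on all arrays, entered the comparisons by gene nowhere, and entered only the counts and medians over all probes. Of these, 15 were higher in clone #3-1 than in clone #4-7 and 13 lower at p under 0.001 (limma). Over all matched genes, with 1 probe each, 13.7% were higher and 14% lower. The 93 measured probes had medians of 0.09 against the empty vector in clone #3-1 and 0.02 in clone #4-7, beside 0.13 in each clone over the 186 measured genes.

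The segment's median was higher among brighter genes. With all measured genes split by brightness into 3 parts of equal size, the segment's 66, 61 and 59 genes from dim to bright had medians of 0.06, 0.12 and 0.27 in clone #3-1, where all genes had 0.02, 0.03 and 0.06. In clone #4-7 the segment had 0.04, 0.07 and 0.21, where all genes had 0.01, 0.03 and 0.06. The median brightness and the median GC content of the probes (45.0%) were close to those of all measured genes (10.79 against 10.71 on the log2 scale, and 45.0%). The part of brightness in the shift was not tested.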
